A study of Mus musculus with 16 samples.

Results

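The constitutive proteasome subunits are the proteins of the standard proteasome, the barrel-shaped protease that degrades proteins marked with ubiquitin. Their 31 genes were taken by name: 7 alpha ring and 7 beta ring genes of the 20S core (Psma1 to Psma7 and Psmb1 to Psmb7), 6 ATPase genes (Psmc1 to Psmc6), 3 base genes without ATPase activity (Psmd1, Psmd2 and Psmd4) and 8 lid genes of the 19S cap (Psmd3, Psmd6, Psmd7, Psmd8, Psmd11, Psmd12, Psmd13 and Psmd14). All 31 were measured, out of 14107 named genes and 22145 features kept on the arrays, each through the brightest probe that matched a RefSeq transcript of the gene. All 31 probes were well above background on all 16 arrays, so none was lost to the filter on dim probes.

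RNA came from the soleus, a slow-twitch muscle of the hindlimb, of male mice whose oxygen was brought down bit by bit to 10% in the first week and held there in the second. Muscles were taken at day 0, before the oxygen was lowered (4 RNA samples on 6 arrays), at day 3 (3 RNA samples), at day 7 (3) and at day 14 (4). The mice carried no genetic change that the labels name, and the labels give neither strain nor age. The series' text plans 4 muscles for each time, and any other RNA sample of day 3 or of day 7 was not analysed here. Nothing in the labels ties the RNA samples to separate mice, so the p-values measure the spread between these RNA samples, which may be partly technical. There was no time-matched group kept in normal air among the samples used here, so days in the protocol and oxygen level cannot be told apart.

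In the 20S core, the alpha subunits form the outer rings that gate the entry of substrates, and the beta subunits form the inner rings. Psmb5, Psmb6 and Psmb7 carry the chymotrypsin-like, caspase-like and trypsin-like active sites. The 19S cap binds ubiquitin chains through receptors such as Psmd4, unfolds substrates with its ring of ATPases and removes ubiquitin with the lid enzyme Psmd14. In muscle this system breaks down much of the contractile protein that is lost in disuse or fasting. Mammalian proteasome genes share a transcription factor, Nfe2l1, which is freed from the endoplasmic reticulum, deglycosylated by Ngly1 and cut by Ddi2, and which binds antioxidant response elements in their promoters.

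The core of that element, TGACNNNGC, was searched on both strands in the 250 bases before each annotated gene start (RefSeq, GRCm38.p6), because it is the motif through which subunit genes are known to be driven together. The table held 27 windows for 25 of the 31 genes, and the core was found in 4 of the 27 (14.8%), against 10.2% of all 32851 windows. The 4 genes were Psmb5, Psmb6, Psmc6 and Psmd12. Their windows are printed because they are all the subunit windows that held the core. All 4 genes are among the 14 subunit genes that were higher at day 7, of which 13 had a window. None of the 12 other subunit genes with a window held the core. A CCAAT box, searched the same way, lay in 10 of the 27 windows (37.0%), against 33.8% of all windows, and in 6 of the 13 and 4 of the 12 genes. The 2 motifs share no letters that would make them overlap by design. Whether either motif goes with the day 7 calls was not tested. A match is a string of letters and not a shown binding site. The windows read 5′ to 3′ on the strand of the gene, with the match in capitals. They lie at chr14:54617996-54618245 (minus strand, match 47 bases before the start), chr11:70525107-70525356 (plus strand, 9 bases), chr14:45329574-45329823 (plus strand, 227 bases, match on the opposite strand) and chr11:107479278-107479527 (plus strand, 247 bases, match on the opposite strand).
Psmb5: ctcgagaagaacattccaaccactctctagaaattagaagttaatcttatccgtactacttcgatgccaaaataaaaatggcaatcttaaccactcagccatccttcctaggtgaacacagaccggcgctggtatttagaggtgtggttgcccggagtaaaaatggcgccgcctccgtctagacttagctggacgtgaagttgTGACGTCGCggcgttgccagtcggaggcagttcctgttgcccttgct
Psmb6: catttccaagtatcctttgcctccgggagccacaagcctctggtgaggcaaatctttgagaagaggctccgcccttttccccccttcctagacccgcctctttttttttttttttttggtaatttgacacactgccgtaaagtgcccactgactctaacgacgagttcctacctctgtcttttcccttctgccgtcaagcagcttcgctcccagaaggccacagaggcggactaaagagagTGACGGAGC
Psmc6: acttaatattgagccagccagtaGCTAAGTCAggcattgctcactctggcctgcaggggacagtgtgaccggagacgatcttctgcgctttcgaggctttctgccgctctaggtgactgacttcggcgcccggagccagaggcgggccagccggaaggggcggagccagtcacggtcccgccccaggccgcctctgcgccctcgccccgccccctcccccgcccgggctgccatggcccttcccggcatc
Psmd12: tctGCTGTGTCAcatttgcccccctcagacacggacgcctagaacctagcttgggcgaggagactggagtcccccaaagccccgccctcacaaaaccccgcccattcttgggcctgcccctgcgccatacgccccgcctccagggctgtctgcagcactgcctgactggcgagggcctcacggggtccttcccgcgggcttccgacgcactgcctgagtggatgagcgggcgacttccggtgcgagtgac

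Values below are log2 intensities relative to an array's own 75th percentile (control spots left out), and differences are later day minus earlier day. The arrays lie on 2 slides: slide 1 holds days 3 and 7 and day 0 RNA samples 1 and 2, and slide 2 holds day 14 and all 4 day 0 RNA samples, the first 2 of them run again. The model (limma) fitted day and slide together, with arrays of 1 RNA sample as a block, so the 2 RNA samples run on both slides carry each comparison of day 3 or 7 with day 0 and that of day 14 with day 7. On slide 1, 48.3 to 55.3% of the spots were well above background, and on slide 2, 37.9 to 42.9%. On the second principal component, with 15.1% of the variance, the 2 day 0 arrays of slide 1 scored -33.9 and -45.1, beyond the -0.938 to 51.8 of the other slide 1 arrays and the -23.5 and -22.7 of the same RNA samples on slide 2. The slow fibre markers, 7 of 7, were above background on all arrays.

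At day 7 the oxygen had just reached its final level, and most subunit genes that passed any test passed it here, against day 0. Of the 31 genes, 14 were higher (45.2%) and 1 was lower, at an adjusted p under 0.05 (limma, Benjamini-Hochberg over all features). Of all features, 15.6% were higher and 8.15% lower in this comparison. The median difference of the 31 genes was 0.23, against 0.09 over all features. The subunit genes are well expressed, and among the 6943 features with a mean signal no lower than that of the dimmest subunit probe 29.2% were higher.

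**Figure D1:**
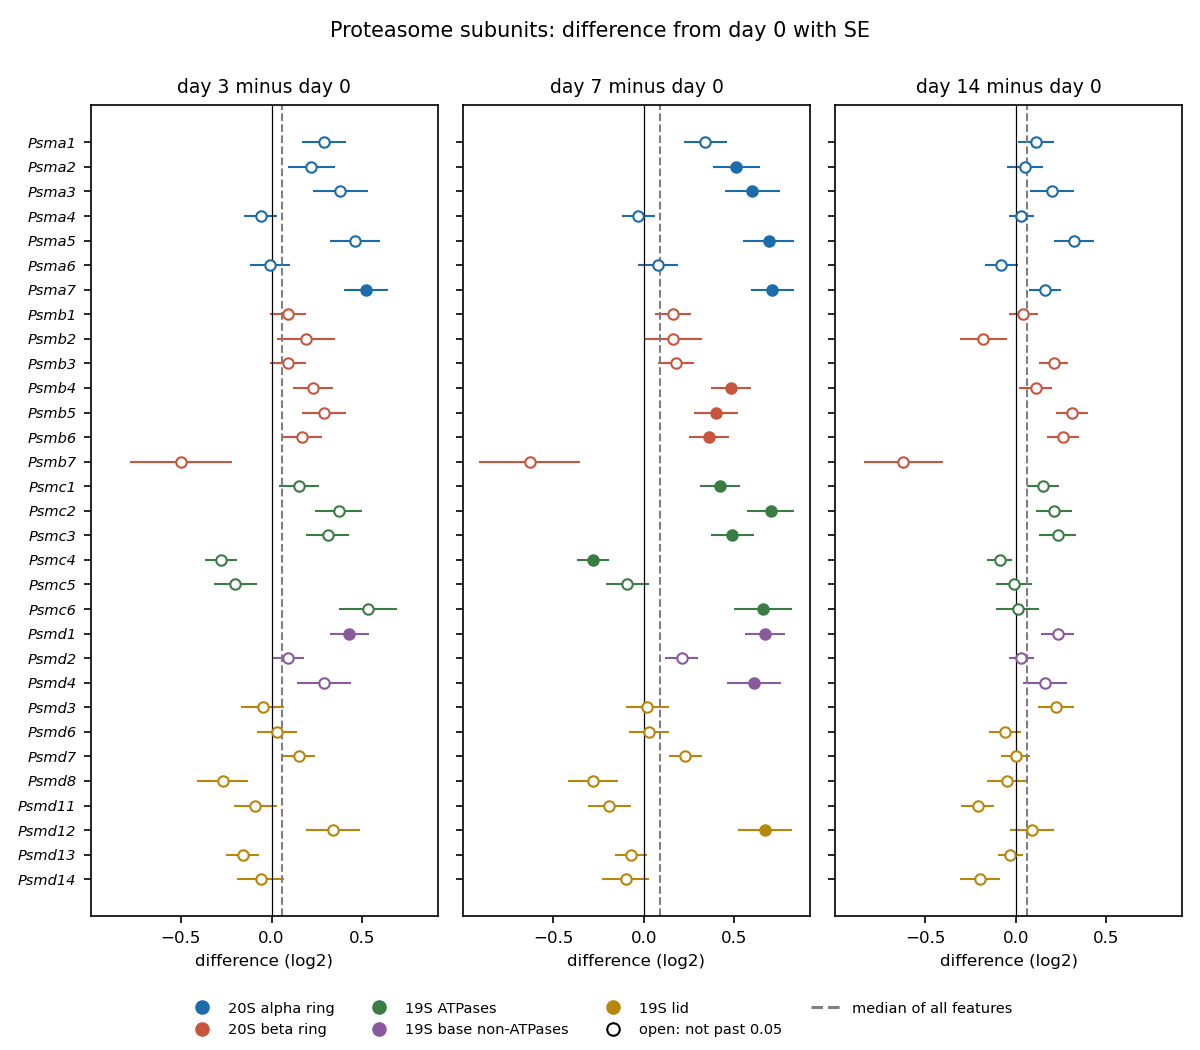
Differences of the 31 subunit genes from day 0 (log2, horizontal axis, bars are SE) at days 3, 7 and 14, with 1 row per gene and colours for the parts of the complex. Filled points passed an adjusted p of 0.05: 2 at day 3, 15 at day 7 and 0 at day 14. The dashed line is the median of all features.

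Most of the 14 higher genes belong to the alpha ring and the cap base. In the alpha ring 4 of 7 genes rose (median of the 7 differences 0.51). Psma7, an alpha ring subunit, lay at 5.61, 5.73 and 5.45 on the day 7 arrays, against 5.01 and 4.81 on the day 0 arrays of the same slide. The day 7 and day 0 arrays of slide 1 did not overlap, and the fitted difference was 0.71 ± 0.12 (SE, n = 3 and 4 RNA samples), 1.63-fold, with an adjusted p of 0.00324 (limma). Psma5 lay at 4.57, 4.73 and 4.28 at day 7, against 3.92 and 3.72 at day 0 on slide 1, a difference of 0.69 ± 0.14 (adjusted p = 0.00579, limma). Psma3 rose by 0.60 ± 0.15 and Psma2 by 0.51 ± 0.13. Psma1 (0.34 ± 0.12, limma adjusted p = 0.053), Psma6 (0.08 ± 0.11) and Psma4 (-0.03 ± 0.09) did not pass.

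In the beta ring 3 of 7 genes rose, with a median difference of 0.18 over the 7. Psmb4, a structural beta subunit without an active site, lay at 6.60, 6.62 and 6.38 at day 7, against 6.08 and 6.03 at day 0 on slide 1, and rose by 0.48 ± 0.11 (adjusted p = 0.00876, limma). Of the 3 catalytic subunits, Psmb5 lay at 7.67, 7.77 and 7.50 at day 7, against 7.29 and 7.16 at day 0 on slide 1 (0.40 ± 0.12, adjusted p = 0.0264). Psmb6 lay at 7.04, 6.98 and 6.85 at day 7, against 6.68 and 6.49 at day 0 on slide 1 (0.36 ± 0.11, adjusted p = 0.0286). For all of Psmb4, Psmb5 and Psmb6 every day 7 array was above both day 0 arrays of the slide. The third catalytic subunit, Psmb7, went the other way without passing, at 4.91, 4.20 and 5.06 at day 7, against 5.44 and 5.37 at day 0 on slide 1 (-0.63 ± 0.28, adjusted p = 0.122, limma). Without the slide 1 arrays of day 0 the sign turned and Psmb7 passed, at 0.96 ± 0.25 (adjusted p = 0.0213, limma). That fit has no slide term and sets day 7 on slide 1 against day 0 on slide 2. Day and slide cannot be told apart in it. Psmb7 was described after its values were seen. Its signal was 1.34 and 1.71 higher on slide 1 than on slide 2 for the 2 RNA samples run on both slides, and its SD over the 4 day 14 arrays was 0.42, against a median of 0.11 over the 31 genes. Psmb1, Psmb2 and Psmb3 differed by 0.16, 0.16 and 0.18 and did not pass.

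In the 19S base, 4 of the 6 ATPase genes rose and 1 fell (median of the 6 differences 0.45), and 2 of the 3 other base genes rose (median 0.61). Psmc2 lay at 5.82, 5.98 and 5.66 at day 7, against 5.19 and 5.05 at day 0 on slide 1, a difference of 0.70 ± 0.13 (adjusted p = 0.00378, limma). Psmc6 lay at 3.36, 3.44 and 3.40 at day 7, against 2.81 and 2.70 at day 0 on slide 1 (0.66 ± 0.16, adjusted p = 0.00978). Psmc3 lay at 7.49, 7.70 and 7.38 at day 7, against 7.10 and 7.00 at day 0 on slide 1 (0.49 ± 0.12, adjusted p = 0.0119). For these 3 ATPase genes the arrays of the slide did not overlap, and Psmc1 rose by 0.42 ± 0.11. Psmd1, the large scaffold of the base, lay at 5.61, 5.78 and 5.48 at day 7, against 5.08 and 4.82 at day 0 on slide 1. It rose by 0.67 ± 0.11, 1.60-fold (adjusted p = 0.00336, limma), and Psmd4, the ubiquitin receptor, by 0.61 ± 0.15. Psmd2, the other scaffold, differed by 0.21 ± 0.09 and did not pass.

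Psmc4 was the 1 subunit gene that fell. It lay at 4.29, 4.26 and 4.35 at day 7, against 4.58 and 4.60 at day 0 on slide 1, a difference of -0.28 ± 0.09 (adjusted p = 0.0324, limma). All day 7 arrays of Psmc4 were below both day 0 arrays of slide 1, yet above the 4.13 to 4.21 of the 4 day 0 arrays on slide 2. Without the slide 1 arrays of day 0, and so with no slide term, the Psmc4 difference turned to 0.12 ± 0.08 (adjusted p = 0.289, limma). Its partner ATPase Psmc5 differed by -0.09 ± 0.12 and did not pass.

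By its median the lid stood at the other end, at -0.03 over 8 genes, against 0.09 over all features. Of the 8 genes 1 rose, a share near the 15.6% of all features. That gene was Psmd12, at 5.96, 6.12 and 5.77 at day 7, against 5.34 and 5.19 at day 0 on slide 1 (0.67 ± 0.15, adjusted p = 0.00822, limma). Psmd14, the lid enzyme that removes ubiquitin, lay at 1.76, 1.63 and 1.92 at day 7, against 1.80 and 2.0 at day 0 on slide 1, with overlapping arrays and a difference of -0.10 ± 0.13. The remaining 6 lid genes differed by -0.28 (Psmd8) to 0.23 (Psmd7), and none of them passed. Across the 31 genes a brighter probe went with a higher day 7 difference (Spearman correlation 0.51, against 0.17 over all features). Whether the lid differs from the rest of the complex was not tested, nor was the part of probe brightness in these medians.

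**Figure D2:**
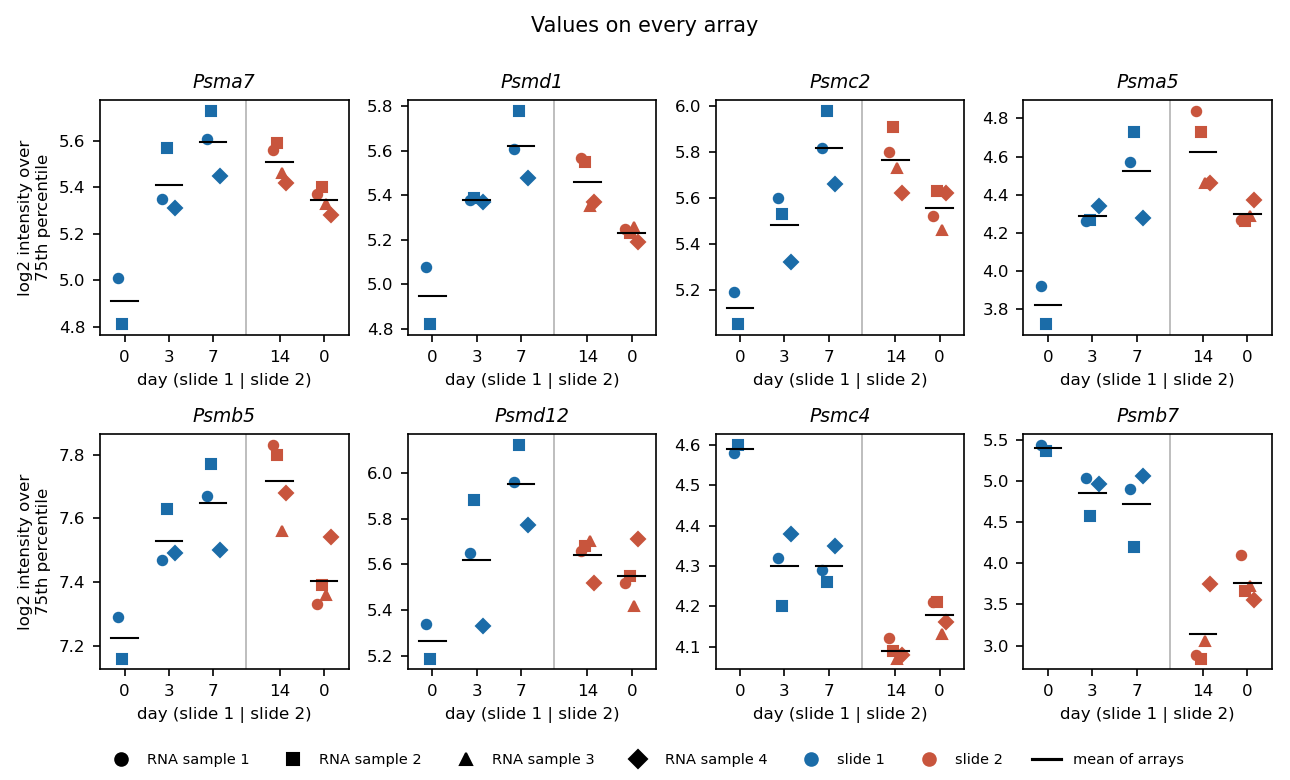
Log2 intensity over the 75th percentile of the array (vertical axis, own scale per panel) on every array for 8 subunit genes, by day, with slide 1 left and slide 2 right of the grey line. Marker shapes give the RNA sample and black lines the mean of the arrays. In the upper 4 panels and in Psmb5 and Psmd12 the day 0 arrays of slide 1 are below all day 7 arrays, and in Psmc4 and Psmb7 above them.

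On slide 1 alone, with no adjustment, all 3 day 7 arrays lay above both day 0 arrays for 19 of the 31 genes and below them for 4. Over all features these shares were 33.5% above and 21.6% below. The genes above were the 14 that rose, with Psma1, Psmb1, Psmb3, Psmd2 and Psmd7, and those below were Psmb7, Psmc4, Psmd8 and Psmd13.

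The day 7 calls rest on few day 0 arrays. For all 14 genes that rose, both day 0 RNA samples run on both slides were lower on slide 1 than on slide 2, by a median of -0.20 and -0.42, against -0.11 and -0.15 over all features, of which 50.7% were lower on slide 1 in both. The 14 were called with those same slide 1 arrays, so their choice favours low values there. This is no separate trait of the subunits. Fitted without the slide 1 arrays of day 0, 2 genes were higher, Psmd1 and Psmb7 (0.39 ± 0.09 for Psmd1, adjusted p = 0.0153), against 7.46% of all features. That fit has no slide term, and its day 7 and day 0 arrays lie on different slides, so day and slide cannot be told apart. Within slide 1 alone, with 3 day 7 and 2 day 0 RNA samples, 4 were higher (Psma5, Psma7, Psmc2 and Psmd1), against 5.66% of all features. With no slide term 6 were higher (Psma7, Psmc1, Psmc2, Psmc6, Psmd1 and Psmd12), against 9.14%. Psmd1 was the 1 gene higher under each of these treatments. Leaving out day 0 RNA sample 2 left 0 genes higher and 0 lower (limma, 13 of 31 at an unadjusted p under 0.05), and 52 and 55 of all features. Counts at an unadjusted p, here and below, have no share over all features beside them, so they show no excess. The same holds below for counts in fits that leave out an RNA sample, where no share is given. Leaving out day 7 RNA sample 2 left 7 higher, against 1715 of all features. The call of Psmc4 was also lost when sample 1 of day 0, or either of samples 1 and 2 of day 7, was left out.

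**Figure D3:**
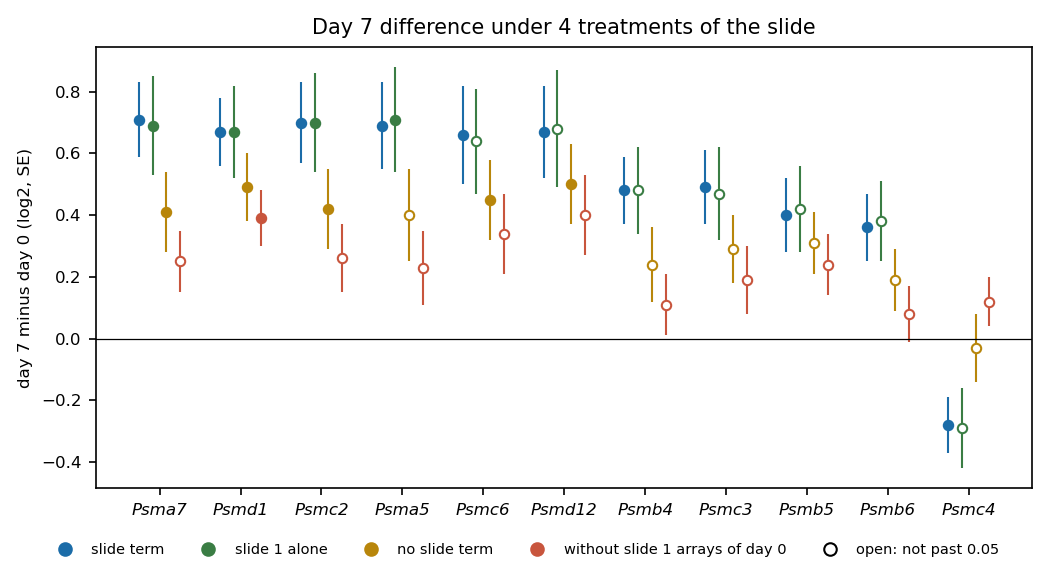
Day 7 minus day 0 (log2, bars are SE) of 11 subunit genes under 4 treatments of the slide, with filled points past an adjusted p of 0.05. The differences within slide 1 alone are close to those of the model with a slide term, and those without the slide 1 arrays of day 0 are the smallest for the 10 higher genes. Psmd1 is filled under all 4, and Psmc4 is at 0.12 without those arrays, against -0.28 with the slide term. The fit without those arrays has no slide term.

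The scale of the arrays also moved the counts. When the 75th percentile was taken over the probes above background on all arrays, the median day 7 difference of all features was -0.06 instead of 0.09 and that of the subunits 0.08 instead of 0.23, so the gap between the medians stayed 0.14. The gap was 0.03 under quantile normalization (0.10 for the subunits, against 0.07 over all features) and 0.06 in the deposited series table (0.11 against 0.05). With the percentile over probes above background on all arrays, 11 subunit genes were higher and 1 lower. The 11 were all among the 14, and 9.60% of all features were higher. Of all features called, 44.3% were higher with that percentile, against 65.7% with the scaling used here.

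For 6 genes a different probe was kept too, and these probes did not always move alike. For Psmc2 the other probe differed by 0.57 at day 7, against 0.70 for the one used. For Psmd12 it differed by 0.18 against 0.67, and for Psmc1 by 0.09 against 0.42. For Psmb5 and Psmc3 the signs were opposite, at -0.21 against 0.40 and -0.14 against 0.49, and for Psma4 both were negative at -0.17 and -0.03. The other 25 genes had 1 probe each.

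**Figure D4:**
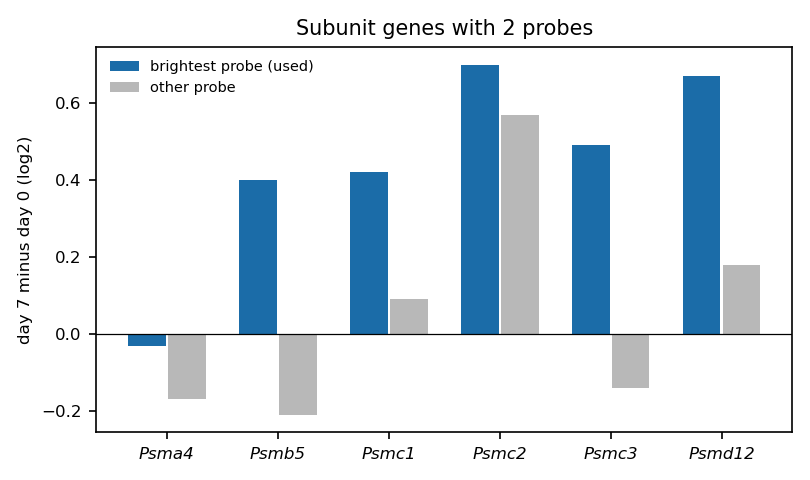
Day 7 minus day 0 (log2, bars from 0) for the 6 subunit genes with 2 probes, the brightest probe used for the gene in blue and the other in grey. Both bars point up for Psmc1, Psmc2 and Psmd12, and they point opposite ways for Psmb5 and Psmc3.

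Markers of other cells moved at day 7 as well. Of 7 measured macrophage markers 4 were lower and 0 higher (median -1.35), and their summed linear level was 13.2 to 14.9 on the day 7 arrays, against 20.4 to 28.6 on the day 0 arrays of slide 1. Of the slow fibre markers 2 of 7 were lower, and of the fast fibre markers 1 of 8 was higher. The summed slow fibre level was 5870 to 6695 at day 7, against 6440 to 6497 at day 0 on slide 1. The lymphocyte markers Cd3g and Ms4a1 were not above background on any array. The part of these cells in the subunit differences was not tested, and in a whole muscle fewer cells of a type and less RNA per cell cannot be told apart.

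Day 3 lies part of the way into the fall in oxygen. Against day 0, Psma7 and Psmd1, both also higher at day 7, were higher and no subunit gene was lower, 2 of 31 (6.45%), against 2.27% of all features higher and 3.82% lower. Psma7 lay at 5.35, 5.57 and 5.31 at day 3, against 5.01 and 4.81 at day 0 on slide 1 (0.52 ± 0.12, adjusted p = 0.0268, limma). Psmd1 lay at 5.38, 5.39 and 5.37 at day 3, against 5.08 and 4.82 at day 0 on slide 1 (0.43 ± 0.11, adjusted p = 0.0425). For both genes the day 3 arrays were all above the day 0 arrays of the slide. The ATPase Psmc6 had a difference as large, 0.53 ± 0.16, with its arrays at 3.21, 3.54 and 3.03 at day 3, against 2.81 and 2.70 at day 0 on slide 1, and did not pass (adjusted p = 0.0604). Neither did Psma5 (0.46 ± 0.14, adjusted p = 0.071) or Psmc4 (-0.28 ± 0.09, adjusted p = 0.0681). Of 5 adipocyte markers 1 was higher at day 3 and all 5 differences were positive (median 1.24), with a summed level of 119 to 170 at day 3, against 118 to 126 at day 0 on slide 1. Of 5 measured erythroid markers 1 was lower and all 5 differences were negative (median -0.82), with a summed level of 407 to 689 at day 3, against 633 to 815 at day 0 on slide 1. The part of either in the subunit values was not tested.

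The median day 3 difference over the 31 genes was 0.15, against 0.06 over all features, and was 0.29 in the alpha ring, 0.17 in the beta ring, 0.23 in the ATPases, 0.29 in the other base genes and -0.06 in the lid. On slide 1 all day 3 arrays lay above both day 0 arrays for 15 genes and below them for 5, against 24.7% and 18.4% of all features. Day 3 and day 7 were set against the same day 0 arrays, so their likeness is no separate evidence. Both day 3 calls were lost when any of 3 RNA samples was left out: samples 1 and 2 of day 0 and sample 2 of day 3. They were also lost within slide 1 alone and with no slide term, and neither passed without the slide 1 arrays of day 0. In that fit 1 other gene did, Psmb7, at 1.09 ± 0.25 (adjusted p = 0.0172, limma), against -0.50 ± 0.28 with those arrays. Day 3 and day 0 lie on different slides in that fit, which has no slide term, so day and slide cannot be told apart. Leaving out day 3 RNA sample 1, day 7 RNA sample 1, day 0 RNA samples 3 or 4, or day 14 RNA samples 2 or 3 left 1 gene higher, and leaving out day 3 RNA sample 4 gave 1 gene lower.

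The differences of day 7 from day 3 compare arrays of 1 slide only and no day 0 array. Their SE and p-values come from the fit of all arrays, on both slides and with day 0. No subunit gene passed in either direction, against 0.447% of all features higher and 0.230% lower (limma), and 7 of 31 had an unadjusted p under 0.05. Fitted within slide 1 alone, 1 of 31 did, and 0 of all features passed in either direction (limma). The median difference was 0.11, against 0.05 over all features. Under quantile normalization it was -0.02, against 0.02. All day 7 arrays lay above all day 3 arrays for 5 genes, Psmb6, Psmc1, Psmc2, Psmd1 and Psmd2, and below for 0, against 11.2% and 6.06% of all features. Psmc2, with 5.82, 5.98 and 5.66 at day 7 against 5.60, 5.53 and 5.32 at day 3, had a difference of 0.33 ± 0.12 (adjusted p = 0.2). Psmd1, with 5.61, 5.78 and 5.48 at day 7 against 5.38, 5.39 and 5.37 at day 3, had 0.24 ± 0.10 (adjusted p = 0.297). Without day 7 RNA sample 4, 1 gene was higher.

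After the second week, in stable low oxygen, no subunit gene was called. At day 14 none passed in either direction, against 0.294% of all features higher and 0.108% lower (limma), and 9 of 31 had an unadjusted p under 0.05. The median difference was 0.05, against 0.06 over all features, and the 31 differences ran from -0.62 (Psmb7) to 0.32 (Psma5). Both groups lie on slide 2 with 4 RNA samples each. The SD over the 4 arrays had a median over the genes of 0.11 at day 14 and 0.08 at day 0 on slide 2.

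A few genes had separate arrays at day 14 all the same. All 4 day 14 arrays lay above all 4 day 0 arrays of slide 2 for 8 genes and below them for 1, against 10.0% and 4.10% of all features. The 8 were Psma5, Psma7, Psmb5, Psmb6, Psmc3, Psmd1, Psmd3 and Psmd4. Psmb5 lay at 7.83, 7.80, 7.56 and 7.68 at day 14, against 7.33, 7.39, 7.36 and 7.54 at day 0 on slide 2 (0.31 ± 0.09, adjusted p = 0.112, limma). Psma5 lay at 4.84, 4.73, 4.46 and 4.46 at day 14, against 4.27, 4.26, 4.29 and 4.37 at day 0 on slide 2 (0.32 ± 0.11, adjusted p = 0.147). Psmd1 lay at 5.57, 5.55, 5.35 and 5.37 at day 14, against 5.25, 5.23, 5.26 and 5.19 at day 0 on slide 2 (0.23 ± 0.09, adjusted p = 0.191). These 3 genes had no overlap between the days, with gaps smaller than the range within day 14. Psmc6, by contrast, lay at 3.15, 3.18, 3.11 and 2.83 at day 14, against 2.95 to 3.26 at day 0 on slide 2, with 3 of the 4 day 14 arrays inside that range and 1 below it. Psmc4 was the gene below, at 4.07 to 4.12 at day 14, against 4.13 to 4.21 at day 0 on slide 2. With no slide term the day 0 arrays of slide 1 enter with no adjustment for their slide. Then 6 genes were higher and 1 lower at day 14, against 9.11% of all features higher. Of 5 measured erythroid markers 4 were higher at day 14 (median 1.73), with a summed level of 2128 to 3587 at day 14, against 764 to 1148 at day 0 on slide 2, and their part in the subunit values was not tested.

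Day 14 against day 7 compares arrays on different slides. No subunit gene passed in either direction, against 1.12% of all features higher and 1.18% lower (limma), and 10 of 31 had an unadjusted p under 0.05. The median difference was -0.18, against -0.04 over all features, and 23 of the 31 differences were negative. The most negative were Psmc6 (-0.65 ± 0.18, adjusted p = 0.0699), Psmd12 (-0.59 ± 0.18, adjusted p = 0.0851) and Psma7 (-0.55 ± 0.13, adjusted p = 0.052, limma). Psmb5 and Psmb6 differed by -0.09 ± 0.14 and -0.10 ± 0.12. Leaving out day 3 RNA sample 2, day 3 RNA sample 4 or day 7 RNA sample 4 gave 2, 3 and 5 genes lower. These counts have no share over all features in the same fits beside them, so they show no excess. The day 7 and day 0 contrasts share arrays with this one, so its values are not independent of those above.

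Over the 4 days together, the F-test of the 3 differences from day 0 was lowest for Psma7 (adjusted p = 0.0135, limma), Psmd1 (0.0142), Psmc2 (0.0171) and Psma5 (0.0209). Through the 3 days each of these 4 was nearest to day 0 at day 14. The differences at days 3, 7 and 14 were 0.52, 0.71 and 0.16 for Psma7 and 0.43, 0.67 and 0.23 for Psmd1. They were 0.37, 0.70 and 0.21 for Psmc2 and 0.46, 0.69 and 0.32 for Psma5.

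Around the subunits, 50 other genes of the pathway were measured, and at day 7 16 of them were higher and 4 lower, against the 15.6% and 8.15% of all features. Of 8 assembly chaperones 2 rose, and 3 of the 8 differences were negative (median 0.18). Pomp, the maturation factor of the 20S core, lay at 5.27, 5.47 and 5.01 at day 7, against 4.70 and 4.44 at day 0 on slide 1 (0.70 ± 0.14, adjusted p = 0.00538, limma). Psmg1, which helps form the alpha ring, rose by 0.60 ± 0.14. Of 4 further cap genes 3 rose: the small lid subunit Sem1 by 0.64 ± 0.14, the deubiquitinase Usp14 by 0.59 ± 0.12 and the deubiquitinase Uchl5 by 0.38 ± 0.12. The ubiquitin receptor Adrm1 differed by -0.27 ± 0.09 and did not pass (adjusted p = 0.0508).

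Among the alternative core subunits and the regulators, 2 genes rose and 1 fell. Of the 3 measured immunoproteasome genes Psmb10 rose by 0.42 ± 0.12 (-0.06 without the slide 1 arrays of day 0), and Psmb8 and Psmb9 differed by -0.30 and 0.18. Of 4 measured activators and inhibitors 0 rose and 1 fell, the inhibitor Psmf1, at -0.49, -0.79 and -0.11 at day 7, against 0.34 and 0.28 at day 0 on slide 1 (-0.71 ± 0.20, adjusted p = 0.0206, limma). The transcription factor Nfe2l1 lay near day 0 (0.01 ± 0.13), and Nfe2l2 and Ddi2 differed by 0.53 ± 0.21 and 0.35 ± 0.15 and did not pass. Ngly1, which deglycosylates Nfe2l1, lay at -1.04, -1.01 and -1.28 at day 7, against -1.92 and -2.46 at day 0 on slide 1, and rose by 1.19 ± 0.35 (adjusted p = 0.0253). Its probe was above background on 5 of the 6 day 0 arrays, so a dim signal limits this value.

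Upstream of the proteasome, Rps27a, a gene for ubiquitin fused to a ribosomal protein, rose at day 7 by 0.64 ± 0.12 and at day 3 by 0.50 ± 0.12 (adjusted p = 0.0316, limma). The day 3 call was lost under 9 of 25 alternatives, and the day 3 difference was 0.06 without the slide 1 arrays of day 0. Within slide 1 alone 0 of all features passed at day 3 (limma). The polyubiquitin gene Ubb differed by -0.04 at day 7 and did not pass. The ubiquitin-activating enzyme gene Uba1 fell by 0.47 ± 0.12, and with the mean of all its probes the difference was 0.06. Vcp, the ATPase that extracts ubiquitinated proteins, lay at 6.50, 6.57 and 6.41 at day 7, against 5.88 and 5.87 at day 0 on slide 1 (0.59 ± 0.10, adjusted p = 0.00336). Its cofactors Ufd1 and Nploc4 rose by 0.65 ± 0.15 and 0.35 ± 0.11, and the shuttle gene Ubqln4 fell by 0.75 ± 0.20, a difference that was 0.44 without the slide 1 arrays of day 0.

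Of 12 muscle ubiquitin ligases, 4 rose and 1 fell at day 7. The atrophy ligase Fbxo32 rose by 0.72 ± 0.21 (adjusted p = 0.0272, limma), and its counterpart Trim63 had a difference of 0.00 ± 0.21. Fbxo21 lay at 2.41, 2.54 and 2.25 at day 7, against 1.80, 1.74 and 1.76 at day 3. It rose in that comparison as well (0.63 ± 0.10, adjusted p = 0.0153, limma). The call against day 3 was lost under 6 of 25 alternatives, and within slide 1 alone 0 of all features passed. Fbxo21 was lower at day 14 than at day 7 (-0.53 ± 0.12, adjusted p = 0.0448, limma). That call was lost under 16 of 24 alternatives, with no slide term (-0.21) and without the slide 1 arrays of day 0 (-0.21) among them. Fbxo30 rose at day 7 by 0.59 ± 0.13, and Stub1 fell by 0.51 ± 0.13 at day 7 and at day 3 alike. The day 3 call of Stub1 was lost under 8 of 25 alternatives, and its difference was -0.05 without the slide 1 arrays of day 0. At day 14 none of the 50 genes passed against day 0 (limma, 14 at an unadjusted p under 0.05). Of the 20 pathway calls at day 7, 0 were kept without the slide 1 arrays of day 0 and 0 when sample 2 of day 0 was left out. Of all 50 genes, called or not, 14 and 18 had an unadjusted p under 0.05 in these 2 fits (limma). In the fit of all arrays with the slide term 28 did. Of the 20 calls, 10 were kept when sample 1 of day 0 was left out, and 9 when sample 2 of day 7 was. There were 5 within slide 1 alone and 6 with no slide term. Vcp, Ngly1 and Fbxo21 were kept under both of the last 2.

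**Figure D5:**
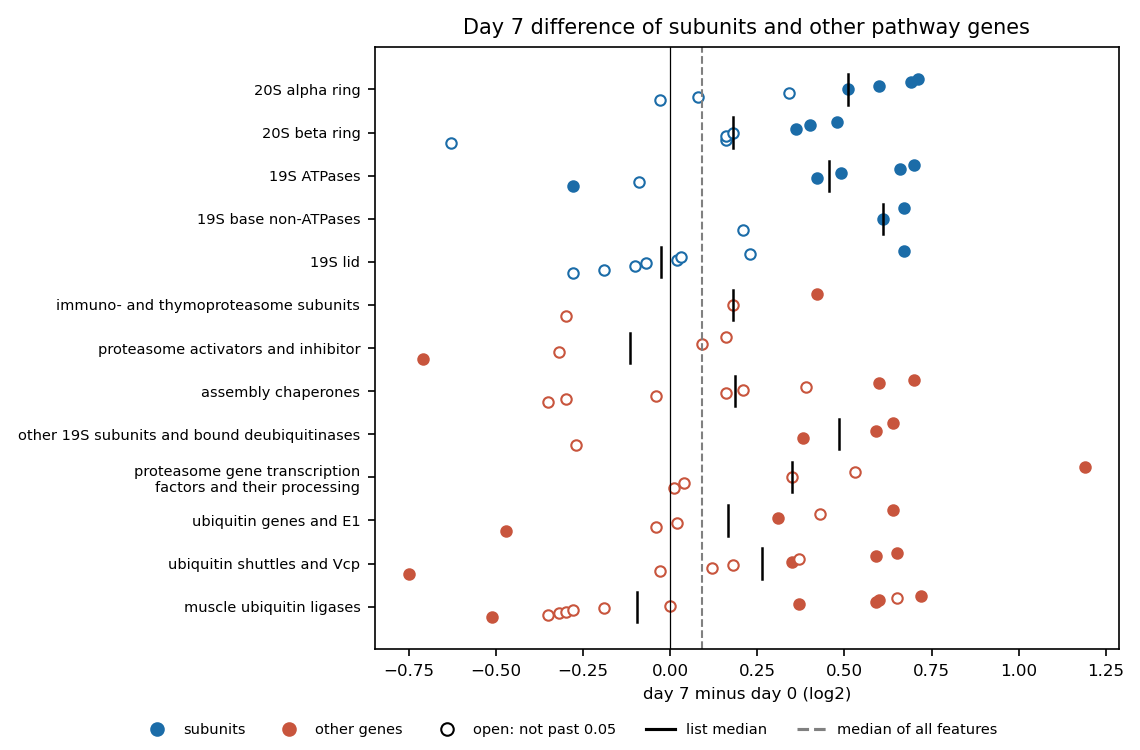
Day 7 minus day 0 (log2, horizontal axis) of each subunit gene (blue) and each other pathway gene (red), by part of the complex or list, with filled points past an adjusted p of 0.05, the list median as a black bar and the median of all features dashed. The medians of the alpha ring, the base genes and the further cap genes lie furthest right, and those of the lid, the activators and inhibitor and the ligases lie left of the dashed line.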

How the data were processed

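Per the file headers, the deposited scanner values are linear intensities of single spots (Agilent Feature Extraction 11.0.1.1), with background subtracted and no scaling from array to array. The deposited series table is also a linear intensity; the steps that made it are not given in the sources used here, its column medians are 45.1 to 46.4, its ranks correlate with the scanner values at 0.928 to 0.982, and it served as an alternative only. The labels name 100 ng of RNA per array.

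Here the intensity was put on the log2 scale and reduced by each array's 75th percentile of non-control spots. Spots of a probe were averaged, flagged outliers left out. Of 55681 probes 27656 matched 1 gene symbol through RefSeq transcripts. A probe was kept if at least 3 of 16 arrays had it well above background (29479), and the brightest probe stood for its gene, leaving 22145 features. Precision is limited by how few RNA samples there are.

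Days were compared with limma 3.58.1 (R 4.3.3, statmod 1.5.0), 2-sided, with terms for day and slide and with RNA samples as a random block (correlation 0.448, 11 residual and 2.45 prior degrees of freedom). Adjustment was by Benjamini-Hochberg across every feature tested. When day 0 RNA sample 1 or 2 was left out, 1 RNA sample linked the slides and the correlation of the full fit was kept. Array values are given for the 10 subunit genes with the smallest F-test p and any past the threshold at day 14, and pathway genes are named at up to 2 per list and direction; Psmb7, Psmc4, Psmd14, Psmd4 and the further pathway genes were added after their values were seen. Some pathway genes are not reported here. The members and lists were chosen with earlier results of these data known. Replicate numbers were not used to pair samples in the main fit. Deviations of same-numbered RNA samples correlated at -0.15 to 0.17, and those of differently numbered ones at -0.20 to 0.19. Over 0.1 were 5 of 19 and 6 of 54 of these pairs, and pairing was not tested. Alternatives covered the slide, background, scaling, filter, probe choice, replicate block and leaving out each RNA sample. The fit was tested on simulated data.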

Additional observations from a re-analysis of the deposited data

Results flagged for a closer look

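Outlying arrays were looked for among the 31 subunit genes in the groups with 4 arrays on a slide, day 14 and day 0 on slide 2. Of 62 gene and day groups, 2 held an array set apart from the other 3, and chance sets apart about 1 in 20 such groups. Psma4 lay at 3.93 on the day 0 array of RNA sample 3, below the 4.04 to 4.06 of the other 3. Psmb1 lay at 4.43 on the day 0 array of RNA sample 4, above the 4.24 to 4.27 of the other 3. Neither gene passed in any comparison.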

How the results depend on the processing

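Each result was refitted under 25 alternatives (24 for day 14 against day 7, which no slide holds alone). At day 7, 14 genes were higher and 1 lower. There were 6 and 0 with no slide term, 2 and 0 without the slide 1 arrays of day 0, 4 and 0 within 1 slide, and 0 lower with no filter on dim probes. Leaving out 1 RNA sample gave 0 to 15 higher and 0 to 1 lower. The day 7 median of 0.23 was 0.10 under quantile normalization (all features 0.07), 0.08 with the percentile over probes above background on all arrays (-0.06) and 0.11 in the deposited series table (0.05). At day 3 the 2 higher genes became 0 with no slide term, with no filter and within 1 slide. Without the slide 1 arrays of day 0 neither was kept and 1 other gene, Psmb7, was higher (median 0.03, against 0.15). There were 4 higher under quantile normalization, and 5, with 1 lower, under normexp background correction, in the series table and with the stricter filter (above background on all 16 arrays). Leaving out 1 RNA sample gave 0 to 3 higher and 0 to 1 lower. At day 14, no slide term gave 6 higher, 1 lower and a median of 0.16. For day 7 against day 3 the median was -0.02 under quantile normalization and 0.01 with the other percentile and in the series table, and leaving out 1 RNA sample gave 0 to 1 higher. For day 14 against day 7, no slide term gave 1 higher and 2 lower, against 8.02% of all features higher (1775, with 825 lower). Leaving out the slide 1 arrays of day 0 gave 2 and 2, against 12.6% of all features higher (2789, with 1397 lower). Normexp gave 14 lower (median -0.30), the stricter filter gave 5, the other percentile and the series table gave 1 each, and leaving out 1 RNA sample 0 to 5. Counts in this section with no share over all features beside them, here or above, show no excess.

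The replicate numbers of the labels were not used to pair the samples in the main fit. With the replicate block, 1 gene was higher at day 3, 12 were higher and 1 lower at day 7, and 2 were lower for day 14 against day 7. Normexp was run on the median spot signal, an alternative chosen after seeing the data. The sign of a called gene turned in 4 cases at day 7: without the slide 1 arrays of day 0 Psmc4 was 0.12, Psmb10 -0.06 and Ubqln4 0.44, and with the mean of all probes Uba1 was 0.06. The fit without those arrays has no slide term, and its day 7 and day 0 arrays lie on different slides. In it a slide offset cannot be told apart from a day difference. The cause of the turns was not tested.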
